A study of Mus musculus with 14 samples.

Results

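The proteins that read N6-methyladenosine (m6A), the methyl mark that METTL3 and its partners write on mRNA, were followed as 10 genes taken by symbol: Ythdf1, Ythdf2, Ythdf3, Ythdc1, Ythdc2, Igf2bp1, Igf2bp2, Igf2bp3, Hnrnpa2b1 and Hnrnpc. All 10 were listed among the 14248 genes of the series. The cells were embryonic fibroblasts of C57BL/6J mice. RNA-seq read RNA cut to 40 to 60 nt, and Ribo-seq read the footprints that ribosomes shield, 25 to 35 nt long; there were 14 libraries, 7 per assay. The control cells, Scram, are labelled only by that name, and the knockdown cells as shMETTL3 and shABCF1, which lowers the ribosome-associated ATPase ABCF1; each of these 3 groups had 2 replicates per assay. The Torin group had 1 library per assay and was given 250 nM Torin1, an inhibitor of the kinase mTOR, for 2 h, while the protocol names DMSO as the other treatment. All cells were washed and lysed with 100 µg/ml cycloheximide, which halts elongating ribosomes. The labels do not say which cells received Torin1, which hairpin sequences were used, or whether replicates were separate cultures, so any p value measures only the spread between these libraries.

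An m6A mark acts through the proteins that bind it. The YTHDF proteins are cytoplasmic: YTHDF2 brings the deadenylase complex CCR4-NOT to marked mRNAs and shortens their life, and YTHDF1 and YTHDF3 have been linked to translation and decay of the same mRNAs. YTHDC1 works in the nucleus in splicing and export, and YTHDC2 is an RNA helicase best known for meiotic entry of germ cells. The IGF2BP proteins are oncofetal RNA-binding proteins, high in the embryo and low in most adult tissues, that stabilise bound mRNAs. HNRNPC and HNRNPA2B1 are abundant nuclear proteins whose access to RNA can depend on structure that the mark loosens.

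The Igf2bp genes share a feature that the choice of members did not use, sites for the microRNA let-7, which silences oncofetal genes as tissues mature. The mature let-7a-5p sequence (RefSeq, GRCm38.p6) is printed with its seed, bases 2 to 8, in capitals. Below it are the 5 exact matches to the 8 bases CTACCTCA in the 3′ UTRs of the Igf2bp transcripts. The match in Hmga2, another oncofetal gene, follows. Each is a 30-base window of GRCm38 with the 8 bases in capitals, and shorter matches to the seed were not counted.
mmu-let-7a-5p: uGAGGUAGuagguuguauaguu
Igf2bp1 site 1, chr11:95961770-95961799, minus strand: ctgtgcgaagtaaaCTACCTCAaggtgtga
Igf2bp1 site 2, chr11:95959349-95959378, minus strand: agcagtgctattaaCTACCTCAgccccaga
Igf2bp1 site 3, chr11:95958755-95958784, minus strand: tataaatggatgaaCTACCTCAgtcctcac
Igf2bp2 site, chr16:22059465-22059494, minus strand: cacacaaataaaagCTACCTCAggtgtttt
Igf2bp3 site, chr6:49086779-49086808, minus strand: gcatttttactcaaCTACCTCAggtattca
Hmga2 site, chr10:120364216-120364245, minus strand: ccgacattcaatttCTACCTCAgcatcagt

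On the transcript strand, 3.44% of 10413 transcripts with a 3′ UTR held CTACCTCA at least once, and 0.0192% held it 3 or more times, as Igf2bp1 did. The other 7 reader transcripts held none. The Igf2bp1 3′ UTR spans 6337 nt against a median of 1029 nt, and the part of length in its site count was not tested. These letters are a description of the transcripts; let-7 itself was not measured here. The 5 bases GGACT, the commonest form of the m6A motif, occurred on the transcript strand at 1.28 per kb in Igf2bp2, 1.21 in Ythdf2 and 1.19 in Igf2bp1, above the median of 1.051 per kb over 10504 transcripts. The other 7 readers lay below that median, Hnrnpc at 0.702 per kb, Igf2bp3 at 0.46, Ythdc2 at 0.416, Ythdf1 at 0.314, Ythdf3 at 0.196, and Ythdc1 and Hnrnpa2b1 at 0, while 92.1% of transcripts held the motif at least once.

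The deposited unit is RPKM, reads divided by length and by library depth, so levels can be compared between genes; each library was multiplied by 1 factor that brought the median over tested genes to a common value (scaled RPKM). The RNA-seq libraries held an implied 1197860 to 3802702 reads, the footprint libraries 1764404 to 5155237. In the 4 RNA-seq libraries of replicate 2 and Torin, Lars2 took 35.4% to 41.6% and Tmem38b 8.21% to 10.9% of these reads, so fewer were left for other genes; in replicate 1 Lars2 took 0% and Tmem38b at most 0.448%. The libraries fell into 2 sets, replicate 1 and replicate 2 with Torin, which differed in how transcripts were listed. Replicate 1 listed 1.35 to 1.36 transcripts per gene for RNA and 1.18 to 1.22 for footprints. The other set listed 1.0 to 1.001 for either assay. The 1st percentile of reads per listed transcript was 1 in replicate 1 and 5 in the other set. Between sets the correlation across genes was 0.578 to 0.667 for RNA and 0.652 to 0.708 for footprints. Within a set it was at least 0.862 and 0.925. The part of listing in this gap was not tested. Because of these sets, each library was set beside the Scram library of its own replicate, and Torin beside Scram replicate 2. Ythdf1, Ythdf3 and Hnrnpa2b1 were listed under different transcripts in the 2 sets, so their listed transcripts were summed. The targeted Mettl3 stood at 27.7% and 77.8% of Scram RNA and at 12.3% and 38.7% of Scram footprints in replicates 1 and 2 of METTL3 knockdown, and Abcf1 at 32.5% and 47.8% of RNA and 30.8% and 50.6% of footprints in ABCF1 knockdown. Of 11 fibroblast markers 10 were listed in every group, Lum being absent, with a summed level of 2803 to 4296 scaled RPKM in RNA-seq. The 4 epithelial markers summed to 47.0 to 58.0 scaled RPKM in Scram RNA and 30.5 to 33.6 in METTL3 knockdown RNA, with Epcam unlisted in both and Cdh1 unlisted in the knockdown. In footprints they summed to 186 to 206 in Scram, 116 to 172 in METTL3 knockdown, 211 to 246 in ABCF1 knockdown and 61.5 with Torin1, and the fibroblast markers to 7668 to 9198 in Scram, 8636 to 9916 in METTL3 knockdown, 9737 to 10180 in ABCF1 knockdown and 5244 with Torin1. The part of these markers in the results was not tested. In bulk samples fewer cells of a type and less RNA per cell cannot be told apart.

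In control fibroblasts the readers spanned a wide range of levels. Hnrnpa2b1 was highest, with 448 and 338 scaled RPKM of RNA and 816 and 1634 of footprints in Scram replicates 1 and 2. Hnrnpc, Ythdf1 and Igf2bp2 followed in RNA, at 38.7 and 55.2, 44.7 and 34.2, and 32.6 and 20.7 scaled RPKM; the ranges of Hnrnpc and Ythdf1 over replicates overlapped, and Igf2bp2 lay below both. Ythdc2 was lowest in both assays and both replicates, at 3.23 and 2.71 scaled RPKM of RNA and 3.85 and 2.49 of footprints. Igf2bp1, Ythdc1, Ythdf2 and Ythdf3 lay between 11.1 and 19.2 scaled RPKM of RNA, and their order changed between replicates. Igf2bp3 was at 10.6 in replicate 1 and 3.23 in replicate 2, so its place relative to these genes rests on the library set.

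The ratio of footprint level to RNA level in Scram placed Hnrnpc at the top of the readers in both replicates, at 6.30 and 7.31, the 80.1 and 92.1 percentile of tested genes. Ythdc2 had ratios of 1.19 and 0.916, at the 20.7 and 12.1 percentile. Ythdc1, the nuclear splicing reader, was at 0.491 in replicate 1 and 1.68 in replicate 2, and Hnrnpa2b1 at 1.82 and 4.84, so their place among the readers changed with the replicate. Igf2bp2 stayed near the middle of all genes, at 2.90 and 3.15.

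**Figure D1:**
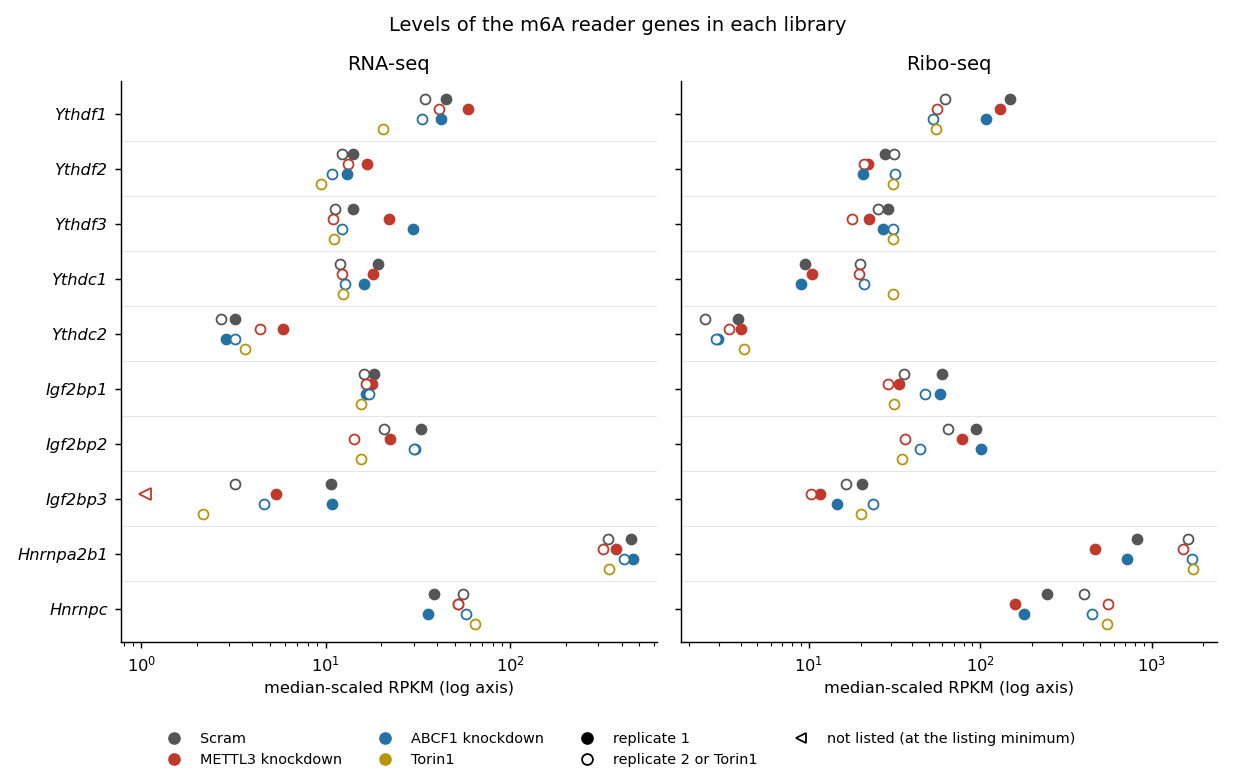
Level of each reader gene (rows) in each library in scaled RPKM on a log axis, RNA-seq left and Ribo-seq right; colour marks the group, filled points replicate 1, open points replicate 2 or Torin, and the triangle the level that the listing minimum would give for Igf2bp3, which was not listed in METTL3 knockdown replicate 2. Hnrnpa2b1 is highest and Ythdc2 lowest in footprints in every library.

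**Figure D2:**
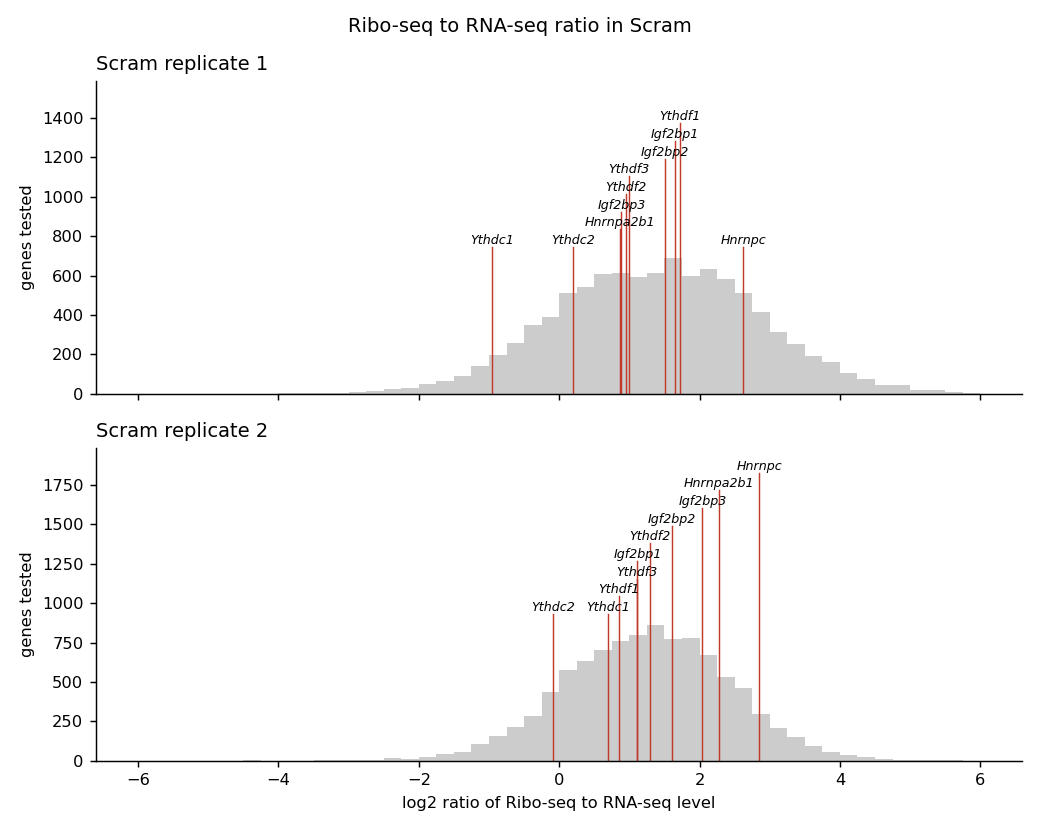
Number of tested genes (grey bars) by log2 ratio of Ribo-seq to RNA-seq level in Scram, replicate 1 above and replicate 2 below, with each reader gene marked by a line whose height carries no value. Hnrnpc lies to the right of the other readers in both replicates, while Ythdc1 moves from -0.95 to 0.70.

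Knockdown of METTL3, the enzyme that writes the mark, asks whether the readers themselves change when this enzyme is lowered. The mark itself was not measured here. Footprints of 7 of the 10 readers were lower than Scram in both replicates: Ythdf1, Ythdf2, Ythdf3, Igf2bp1, Igf2bp2, Igf2bp3 and Hnrnpa2b1. The background was 27.1% of 10522 tested genes lower in both, and 29.4% higher in both, a direction taken by 1 reader, Ythdc2. The readers' median log2 difference in footprints was -0.34 in replicate 1 and -0.23 in replicate 2, against -0.01 and 0.05 over all tested genes. RNA showed no such tilt, with 3 readers lower in both replicates (background 27.7%) and 3 higher in both (background 26.0%); without scaling these became 5 and 2, with Ythdf2, Ythdc1 and Igf2bp1 changing sign in replicate 2. None of these differences passed limma at a Benjamini-Hochberg adjusted p under 0.05, where 0.0% of 9534 genes in Ribo-seq and 0.0% of 9021 in RNA-seq were called. At an unadjusted p under 0.05 the same limma fits hold 243 genes in Ribo-seq and 63 in RNA-seq, none of them a reader. The replicate number can serve as a block, which the pairing of the libraries allows, with Torin placed in replicate 2 here and below. With this block limma holds 1261 and 386 genes at that unadjusted p. Among them are Igf2bp1 footprints (limma adjusted p = 0.364), Igf2bp3 footprints (adjusted p = 0.376) and Igf2bp3 RNA (adjusted p = 0.999), the last with 1 unlisted library taken as 0; none passed the adjusted threshold.

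By limma's estimate, the 3 Igf2bp genes had the lowest footprint differences from Scram of all readers. Igf2bp1 (ENSMUSG00000013415, chr11:95957163-96005940 by GENCODE M21 on GRCm38) had footprint levels of 59.5 and 36.1 scaled RPKM in Scram, 33.7 and 29.0 in METTL3 knockdown, 58.3 and 47.5 in ABCF1 knockdown and 31.2 with Torin1. Its RNA was nearly level, at 18.3 and 16.1 scaled RPKM in Scram, 17.8 and 16.5 in METTL3 knockdown, 16.5 and 17.1 in ABCF1 knockdown and 15.5 with Torin1. The METTL3 knockdown footprints lay below both Scram libraries, while the RNA of the hairpin groups overlapped. In METTL3 knockdown its footprints stood at 56.6% of Scram in replicate 1 (95% counting interval 46.1% to 69.1%) and at 80.3% in replicate 2 (64.4% to 99.7%); these intervals, here and below, are exact, rest on read counts alone and hold no difference between cultures. RNA stood at 97.4% and 102%. The footprint to RNA ratio of Igf2bp1 was lower by 0.77 and 0.34 on the log2 scale. limma gave a footprint difference of -0.56 with a standard error of 0.35 (adjusted p = 1.0). Unless a block is named, standard errors here and below are without it and also hold the difference between the 2 sets of libraries. That difference includes how transcripts were listed. For Igf2bp1 footprints the block brought the standard error to 0.23.

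Igf2bp2 (ENSMUSG00000033581, chr16:22059009-22163299), the member best known for a role in metabolism, was lower in both RNA and footprints. RNA was at 32.6 and 20.7 scaled RPKM in Scram, 22.4 and 14.2 in METTL3 knockdown, 30.40 and 30.03 in ABCF1 knockdown and 15.6 with Torin1. Footprints were at 94.5 and 65.1 scaled RPKM in Scram, 78.5 and 36.5 in METTL3 knockdown, 100.4 and 44.4 in ABCF1 knockdown and 34.8 with Torin1. Within each replicate METTL3 knockdown was below Scram in both assays, but the ranges of the groups overlapped in RNA and in footprints. RNA stood at 68.6% of Scram (56.6% to 82.9%) and 68.8% (51.2% to 91.0%), footprints at 83.0% (72.4% to 95.1%) and 56.1% (46.7% to 67.2%). Its ratio had opposite signs in the replicates, 0.26 and -0.31 on the log2 scale. limma gave -0.52 with a standard error of 0.36 in RNA-seq and -0.54 with 0.59 in Ribo-seq (adjusted p = 1.0 in each). The replicate block brought these standard errors to 0.23 and 0.24 (limma adjusted p = 0.999 and 0.394).

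Igf2bp3 (ENSMUSG00000029814, chr6:49085223-49214957), the most strictly fetal of the family, was at 20.5 and 16.4 scaled RPKM of footprints in Scram, 11.6 and 10.3 in METTL3 knockdown, 14.6 and 23.7 in ABCF1 knockdown and 20.2 with Torin1. Both METTL3 knockdown libraries were below every other Ribo-seq library. Footprints stood at 56.7% (39.7% to 79.8%) and 62.9% (43.6% to 89.3%) of Scram, from 45 reads in each knockdown library against 145 and 119 in Scram. RNA was at 10.6 and 3.23 scaled RPKM in Scram and 5.37 in METTL3 knockdown replicate 1, which is 50.6% of Scram (35.3% to 71.8%). In METTL3 knockdown replicate 2 its RNA was not listed. Files of that set list transcripts from about 5 reads, and 15.4 reads would be expected there at the Scram level. The listing minimum thus stands for about 32.4% of Scram, without counting error on it or on the 48 Scram reads. No interval was set on this bound, and any ratio in that replicate depends on the pseudocount. limma gave -0.69 with a standard error of 0.37 for footprints (adjusted p = 1.0).

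Summed over the family, Igf2bp footprints were 174 and 118 scaled RPKM in Scram, 124 and 75.8 in METTL3 knockdown, 173 and 116 in ABCF1 knockdown and 86.2 with Torin1. In each replicate the METTL3 knockdown sum was the lowest of the 3 hairpin groups, and the ABCF1 knockdown sum lay close to Scram. The members of that sum moved apart in replicate 2 of ABCF1 knockdown. Footprints of Igf2bp1 were at 132% of Scram there and Igf2bp3 at 145%, while Igf2bp2 was at 68.2%. Set directly against ABCF1 knockdown, which shares the hairpin procedure, METTL3 knockdown gave a log2 footprint difference of -0.74 with a standard error of 0.35 for Igf2bp1 and -0.72 with 0.37 for Igf2bp3 (limma, adjusted p = 1.0 in each). In RNA the same comparison gave -0.73 with 0.36 for Igf2bp2. None passed, and among all genes 0.0% were called in either assay, with 201 for footprints and 254 for RNA at an unadjusted p under 0.05. With the replicate number as a block, limma called 0.0524% of genes for footprints, none of them a reader.

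**Figure D3:**
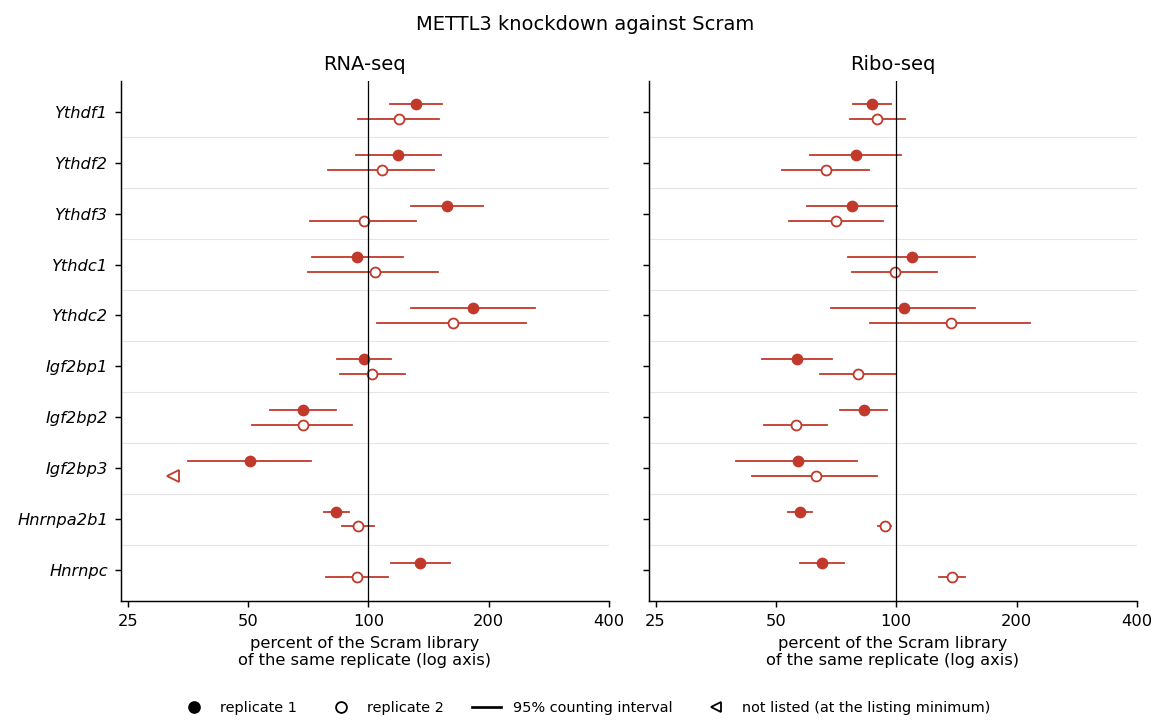
Level of each reader in METTL3 knockdown as a percent of Scram of the same replicate on a log axis, RNA-seq left and Ribo-seq right, with filled points for replicate 1, open points for replicate 2, bars for 95% counting intervals, and a triangle at 32.4% for the unlisted Igf2bp3 RNA. In footprints both points of the 3 Ythdf genes, the 3 Igf2bp genes and Hnrnpa2b1 lie left of the line at 100%.

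The cytoplasmic Ythdf readers had fewer footprints per RNA than Scram in both METTL3 knockdown replicates. Ythdf1, Ythdf2 and Ythdf3 were among the 6 readers whose footprint to RNA ratio was lower in both replicates, against a background of 24.9% of 9806 tested genes; Ythdc2, Igf2bp1 and Hnrnpa2b1 were the others, and Hnrnpa2b1 left this count without scaling. Igf2bp3 alone was higher in both (background 30.0%), by 0.10 on the log2 scale in replicate 1 and, in replicate 2, by way of the unlisted RNA; a pseudocount of 5 turned the replicate 1 value to -0.03. In limma 0.0% of 9428 genes were called for the ratio, with 46 at an unadjusted p under 0.05 and no reader among them. Replicates 1 and 2 of ABCF1 knockdown gave log2 ratio differences of -0.39 and -0.20 for Ythdf1. For Ythdf2 they gave -0.31 and 0.19, and for Ythdf3 -1.11 and 0.16, so the lower ratio in replicate 1 was not particular to METTL3 knockdown.

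Ythdf2 (ENSMUSG00000040025, chr4:132184912-132212303), the decay reader, had 27.9 and 31.5 scaled RPKM of footprints in Scram, 22.2 and 21.1 in METTL3 knockdown, 20.7 and 31.9 in ABCF1 knockdown and 30.9 with Torin1. RNA was at 13.98 and 12.2 scaled RPKM in Scram, 16.6 and 13.2 in METTL3 knockdown, 12.9 and 10.8 in ABCF1 knockdown and 9.38 with Torin1. Footprints in METTL3 knockdown were below both Scram libraries, and RNA overlapped. They stood at 79.4% (60.9% to 103%) and 66.8% (51.9% to 85.5%) of Scram, and the ratio was lower by 0.55 and 0.66 on the log2 scale, below which lay 14.5% and 8.11% of tested genes. The limma ratio difference was -0.61 with a standard error of 0.41 (adjusted p = 1.0).

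Ythdf3 (ENSMUSG00000047213, chr3:16183212-16217037), read as the sum of its transcripts, had footprints of 28.9 and 25.2 scaled RPKM in Scram, 22.5 and 17.8 in METTL3 knockdown, 27.1 and 30.9 in ABCF1 knockdown and 30.8 with Torin1. The METTL3 knockdown libraries were the lowest of all. RNA was at 14.02 and 11.1 scaled RPKM in Scram, 22.1 and 10.9 in METTL3 knockdown, 29.5 and 12.3 in ABCF1 knockdown and 11.04 with Torin1. Its RNA was thus high only in the replicate 1 knockdowns, at 157% of Scram (128% to 194%) with METTL3 and 210% (172% to 257%) with ABCF1, and near Scram in replicate 2, at 97.7% and 110%. The ratio was lower by 0.97 and 0.44 in METTL3 knockdown on the log2 scale.

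Ythdf1 (ENSMUSG00000038848, chr2:180904377-180920949), also summed, was the most abundant of the 3 at both levels. Footprints were at 150 and 62.3 scaled RPKM in Scram, 130 and 55.9 in METTL3 knockdown, 107 and 52.7 in ABCF1 knockdown and 55.1 with Torin1. RNA was at 44.7 and 34.2 scaled RPKM in Scram, 58.8 and 40.8 in METTL3 knockdown, 42.1 and 33.3 in ABCF1 knockdown and 20.3 with Torin1. In METTL3 knockdown RNA stood at 132% (113% to 153%) and 119% (94.0% to 150%) of Scram and footprints at 87.0% (78.0% to 97.0%) and 89.7% (76.5% to 105%). The groups overlapped across replicates. With all transcripts summed, limma gave a ratio difference of -0.48 with a standard error of 0.52 for Ythdf1 and -0.69 with 0.53 for Ythdf3 (adjusted p = 1.0 in each).

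Neither Ythdc reader had lower footprints in both METTL3 knockdown replicates. Ythdc2 (ENSMUSG00000034653) was the only reader with higher RNA and higher footprints in both METTL3 knockdown replicates. Its RNA was at 3.23 and 2.71 scaled RPKM in Scram, 5.88 and 4.41 in METTL3 knockdown, 2.89 and 3.22 in ABCF1 knockdown and 3.63 with Torin1. Both METTL3 knockdown libraries lay above every other RNA-seq library, at 182% (128% to 262%) and 163% (105% to 248%) of Scram, from 89 and 35 reads. Footprints were at 3.85 and 2.49 scaled RPKM in Scram, 4.04 and 3.40 in METTL3 knockdown, 2.96 and 2.87 in ABCF1 knockdown and 4.16 with Torin1, and overlapped. limma gave 0.62 with a standard error of 0.39 in RNA-seq (adjusted p = 1.0).

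Ythdc1 (ENSMUSG00000035851, chr5:86804564-86836657) lay close to its Scram partner in both assays and both replicates of METTL3 knockdown, at 93.9% and 104% in RNA and 110% and 99.1% in footprints. Its counting intervals, such as 76.0% to 157% for replicate 1 footprints, leave a change of moderate size undetectable at this depth. Its footprints were at 9.44 and 19.8 scaled RPKM in Scram, 10.4 and 19.7 in METTL3 knockdown and 8.998 and 20.8 in ABCF1 knockdown, so the replicates differed far more than the groups.

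The hnRNP readers split by replicate. Hnrnpa2b1 (ENSMUSG00000004980, chr6:51461121-51469847) had footprints of 816 and 1634 scaled RPKM in Scram, 468 and 1529 in METTL3 knockdown, 713 and 1719 in ABCF1 knockdown and 1744 with Torin1. METTL3 knockdown stood at 57.4% of Scram (53.5% to 61.5%) in replicate 1 and 93.6% (90.1% to 97.3%) in replicate 2. RNA was at 448 and 338 scaled RPKM in Scram, 372 and 318 in METTL3 knockdown, 460 and 413 in ABCF1 knockdown and 342 with Torin1, which places METTL3 knockdown at 83.1% and 94.1% of Scram. The direction held in both replicates, and the size did not. With transcripts summed, limma gave -0.43 with a standard error of 0.96 for footprints (adjusted p = 1.0). The replicate block brought this standard error to 0.23 (limma adjusted p = 0.467).

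Hnrnpc (ENSMUSG00000060373, chr14:52073377-52104028) took opposite directions. Its footprints were at 244 and 404 scaled RPKM in Scram, 159 and 557 in METTL3 knockdown, 180 and 448 in ABCF1 knockdown and 551 with Torin1. METTL3 knockdown thus stood at 65.2% of Scram (57.4% to 74.0%) in replicate 1 and 138% (128% to 149%) in replicate 2, intervals that do not overlap. RNA was at 38.7 and 55.2 scaled RPKM in Scram and 52.3 and 51.8 in METTL3 knockdown. Its ratio differed by -1.04 and 0.55 on the log2 scale. Of 16 other hnRNP genes, 4 had lower footprints in both replicates of METTL3 knockdown and 2 had higher footprints, near or below the shares over all genes of 27.1% and 29.4%. The list's median ratio difference was likewise -0.56 in replicate 1 and 0.19 in replicate 2.

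**Figure D4:**
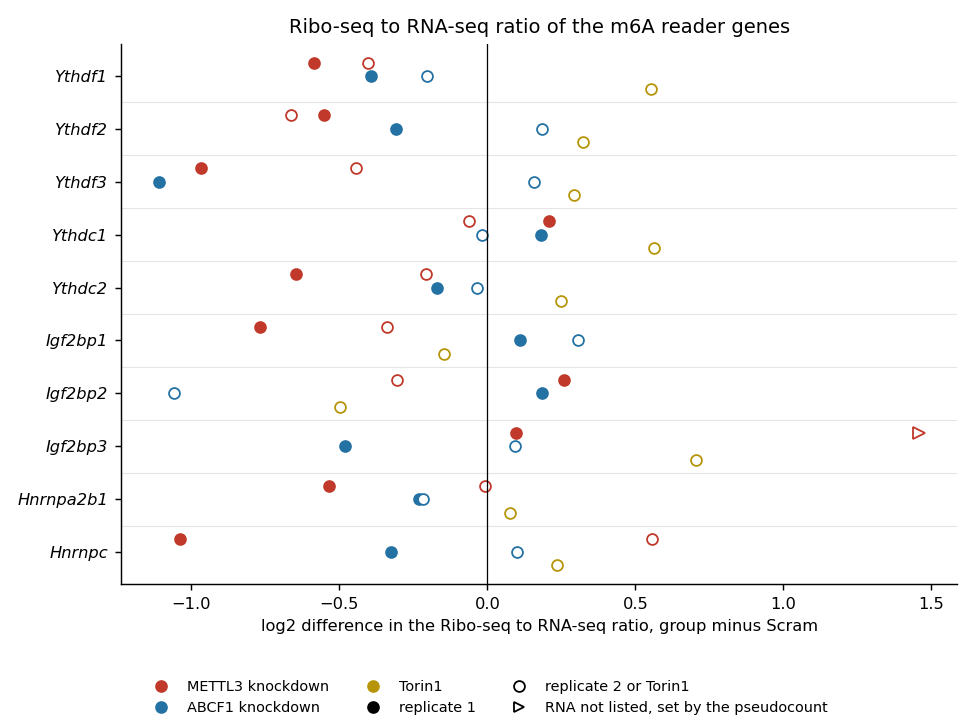
Log2 difference in the Ribo-seq to RNA-seq ratio of each reader, group minus Scram of the same replicate (Torin minus Scram replicate 2), with colour for the group, filled points for replicate 1 and open points for replicate 2 or Torin. METTL3 knockdown points of Ythdf1, Ythdf2, Ythdf3, Ythdc2 and Igf2bp1 lie left of 0 in both replicates, those of Hnrnpc on opposite sides, and the triangle marks the Igf2bp3 value of 1.46 set by the pseudocount.

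Knockdown of ABCF1 gave little that both replicates shared. Only Ythdf1 had lower footprints in both, at 71.6% (65.4% to 78.5%) and 84.5% (72.5% to 98.3%) of Scram, against a background of 24.9%; none was higher in both, against 27.1%. Ythdf1 RNA stood at 94.2% and 97.4%. RNA was lower in both replicates for 2 readers, Ythdf1 and Ythdf2 (background 30.2%), and higher in both for Ythdf3, Igf2bp3 and Hnrnpa2b1 (background 22.4%). The ratio was lower in both for Ythdf1, Ythdc2 and Hnrnpa2b1 (background 22.7%) and higher in both for Igf2bp1 (background 30.3%). Scaling moved these counts: without it RNA was lower in both for 6 readers and higher for 1, footprints were lower for 2 and higher for 3, and no ratio was lower in both, while quantile normalization took Ythdf1 out of the readers with lower RNA. limma called 0.0% of genes in each readout of this comparison. At an unadjusted p under 0.05 it held 79 genes for RNA, 106 for footprints and 39 for the ratio, with no reader among them.

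Other readers differed in direction between the replicates of ABCF1 knockdown. Igf2bp2 footprints were at 106% of Scram in replicate 1 (96.0% to 118%) and 68.2% in replicate 2 (58.1% to 79.9%), while its RNA was at 93.2% and 145%. Igf2bp3 footprints were at 71.6% (55.8% to 91.7%) and 145% (112% to 188%). Hnrnpc footprints were at 73.6% (66.9% to 80.9%) and 111% (103% to 120%). For these 3 genes the replicates disagreed beyond counting error, so no direction is given. Both knockdowns were compared with the same Scram libraries.

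**Figure D5:**
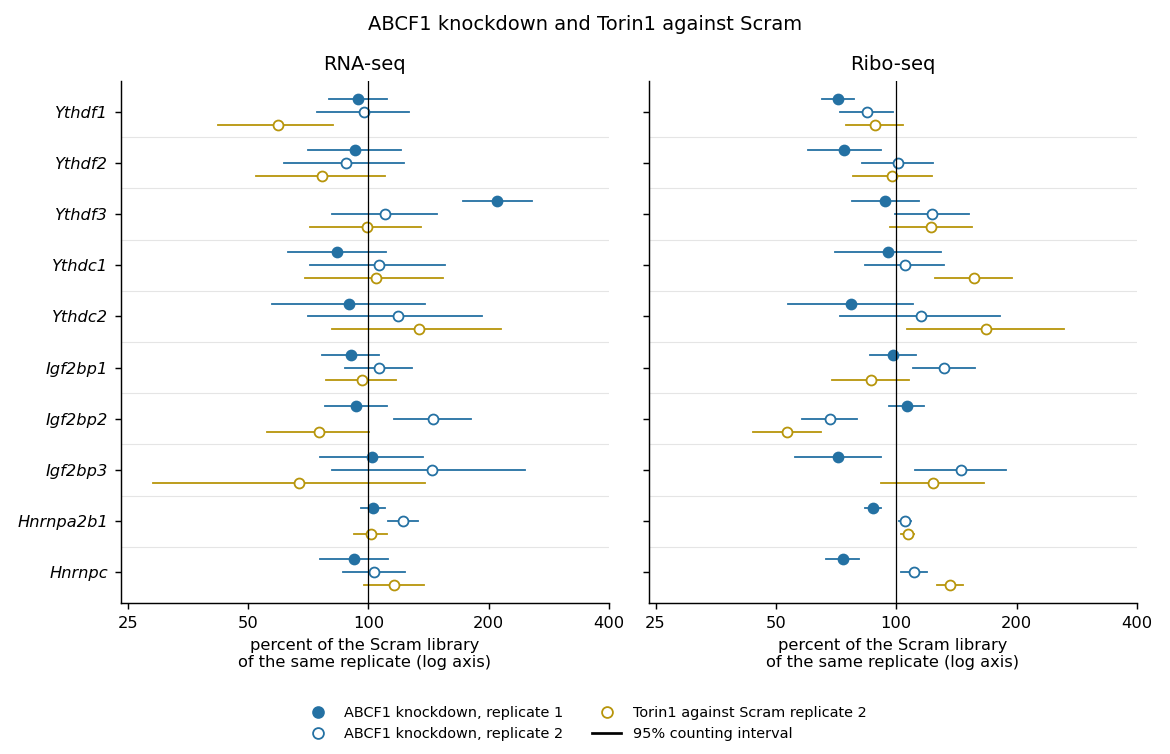
Level of each reader in ABCF1 knockdown (blue, filled for replicate 1 and open for replicate 2) and with Torin1 (yellow) as a percent of Scram on a log axis, RNA-seq left and Ribo-seq right, with bars for 95% counting intervals. Torin1 points for Igf2bp2 footprints, at 53.4%, and Ythdc1 footprints, at 156%, lie on opposite sides of the line at 100%.

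Torin1 blocks mTOR and with it cap-dependent initiation, most of all on mRNAs that begin with a terminal oligopyrimidine tract; with 1 library per assay it was compared with Scram replicate 2 by size alone, at 1.5-fold. Footprints were above Scram for 6 readers, as for 48.4% of tested genes, and below it for 4, as for 50.8%. Footprints of 1 reader, Igf2bp2, were lower by more than that, a size passed downward by 15.3% of tested genes, and of 1 reader, Ythdc1, higher, a size passed upward by 10.8%. Igf2bp2 stood at 53.4% of Scram (43.9% to 64.7%), 34.8 against 65.1 scaled RPKM, with RNA at 75.2% (55.7% to 100.2%). Ythdc1 stood at 156% (125% to 195%), 31.0 against 19.8 scaled RPKM, with RNA at 104%. Ythdc2 footprints were at 167% of Scram (107% to 262%), just short of 1.5-fold on the log2 scale used here, where 1 is added to each level before the ratio.

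RNA was below Scram for 6 readers, against 53.5% of genes, and above it for 4, against 46.3%. Ythdf1 RNA alone passed 1.5-fold downward, at 59.2% of Scram (42.0% to 81.7%), a size passed by 13.6% of genes, while its footprints stood at 88.4%. No reader passed it upward, which 5.35% of genes did. For the ratio only Igf2bp3 passed upward, by 0.70 on the log2 scale and from 9 RNA reads, where 17.7% of genes did. The ratio with Torin1 was above Scram for 8 readers, against 51.6% of genes, and below it for 2, Igf2bp1 and Igf2bp2, against 48.4%. Without scaling, Igf2bp1 joined the readers above, and the footprints of Ythdf1, Ythdf2 and Igf2bp1 turned from below Scram to above it; Ythdf2 did so with quantile normalization too. limma, with the spread of the lone library taken from the other groups, called 0.0% of genes for Torin in each readout. With all transcripts summed, limma gave Ythdf1 RNA a Torin difference of -0.76 on the log2 scale, and -0.71 with the replicate number as a block. With a lone Torin library these are sizes alone. The fit on kept transcripts did not test Ythdf1 or Ythdf3, and called none of the readers it tested. With the replicate number as a block it called 0.111% of genes for RNA, 1.32% for footprints and 0.53% for the ratio, and again no reader.

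The genes that work with the readers were read from lists. Among 9 writer genes, the methyltransferase complex, 3 had lower footprints in both METTL3 knockdown replicates, the targeted Mettl3 among them, and none had higher ones. The erasers Fto and Alkbh5 took opposite footprint directions in the replicates, Fto at 112% and 92.0% and Alkbh5 at 138% and 89.7% of Scram. Of 10 further proteins proposed as readers, 4 had lower footprints in both replicates and 0 higher, with median log2 differences of -0.21 and -0.03. Of 15 genes of mRNA decay that work with YTHDF2, 11 were lower in both and 1 higher, with medians of -0.18 and -0.11. Cnot10 and Cnot3, subunits of CCR4-NOT, stood at 69.4% and 73.0%, and at 68.1% and 76.1% of Scram footprints in METTL3 knockdown. The METTL3 knockdown counts of these lists stand beside the background of 27.1% lower and 29.4% higher. In ABCF1 knockdown 7 of these decay genes were lower in both, against 24.9% of all genes, and 2 higher, against 27.1%. Their medians there were -0.31 and -0.19. limma without a block called no member of any list.

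Of 8 mRNAs reported as bound by IGF2BP proteins, 7 had lower footprints in both METTL3 knockdown replicates, against 27.1% of all genes, with median log2 differences of -0.80 and -1.33. limma tested footprints of 7 of the 8, with a median estimate of -0.81. RNA was lower in both replicates for 4 and higher for 1, against 27.7% and 26.0% of all genes, with medians of -0.36 and -0.39. In both ABCF1 knockdown replicates 5 had lower footprints, against 24.9% of all genes, with medians of -0.57 and -0.90. Torin1 gave lower footprints for 6 and higher for 2, against 50.8% and 48.4% of all genes, with a median of -0.43. Hmga2, a chromatin protein of embryonic growth, was at 202 and 122 scaled RPKM of footprints in Scram and 27.8 and 16.4 in METTL3 knockdown, which is 13.8% and 13.4%. Its RNA stood at 41.2% and 37.1%. With the replicate number as a block, limma called Hmga2 footprints (-2.77 with a standard error of 0.20, adjusted p = 0.0252; adjusted p = 1.0 without the block), the 1 gene called there, 0.0105% of those tested. Cd44, a hyaluronan receptor, was at 28.0% and 39.0%. Igf2, the growth factor that gave the family its name, had 37 and 28 footprint reads in Scram, 5 in METTL3 knockdown replicate 1, and was unlisted in replicate 2. Igf2 is 1 of the 8 mRNAs, with the unlisted library taken as 0.

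Among other genes listed as let-7 targets, 4 of 6 tested had lower footprints in both METTL3 knockdown replicates and 0 higher. The shares over all genes were 27.1% and 29.4%, and the list's medians were -0.36 and -0.62. Both Hmga2 and Igf2 are also among the mRNAs bound by IGF2BP proteins above, Igf2 with its unlisted library taken as 0. E2f5, a cell cycle transcription factor, was at 73.1% and 42.9%, from 12 and 8 reads. In ABCF1 knockdown 3 of the 6 genes had lower footprints in both replicates and 3 higher, against 24.9% and 27.1% of all genes. Torin1 gave lower footprints for 6 and higher for 0, with a median of -0.25, against 50.8% and 48.4% of all genes. Lin28b, the let-7 antagonist, was near the listing minimum, with 4 footprint reads at most in Scram, and gives no comparison.

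The members whose 10 differences from Scram (5 per assay) varied most were Igf2bp3, with a standard deviation of 0.77 on the log2 scale, and Ythdf3, with 0.44; Ythdc1 varied least, with 0.22. Genes whose 10 differences were most like those of Igf2bp3 among 9806 were Adprh (Pearson r = 0.896), Ipp (0.886) and Cpsf3 (0.886). For Ythdf3 they were Nol10 (0.964) and Degs1 (0.960). The points share libraries and Scram controls, and the Igf2bp3 values include the unlisted RNA, so these are descriptions only.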

How the data were processed

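Per the submitters' processing notes, reads were trimmed with cutadapt and mapped with Bowtie to GRCm38; no source used here gives versions, the annotation or a minimum of reads. The authors deposited RPKM per Ensembl transcript, which divides by length and depth; 22356 of 22453 transcripts matched GENCODE M21. RPKM times length gave whole reads, within 0.02, for 80.4% to 85.4% of RNA-seq values with transcript length and 98.7% to 98.8% of Ribo-seq values with coding length, which set the counting intervals. Per gene the transcript of highest mean RPKM was kept, except where stated as summed. limma 3.58.1 in R 4.3.3 tested log2(median-scaled RPKM + 1) without a block, for genes listed in at least 0.5 of libraries with a mean RPKM of at least 1. That kept 8 of 10 readers; Ythdf1 and Ythdf3 were tested only as sums. Counts in both replicates use all transcripts summed for the background. Same-numbered libraries deviated together (correlations 0.817 to 0.88 in RNA-seq, 0.91 to 0.939 in Ribo-seq), so the numbers pair them. The scripts were checked on simulated data. Members and gene lists were chosen with earlier results of these data known. Named genes are all members, both targets, up to 3 genes of lowest p per list, with Hmga2, Lin28b and Igf2 always, and the 3 most alike to the 2 most variable members; some genes that this rule names are not reported here.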

Additional observations from a re-analysis of the deposited data

How the results depend on the processing

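No reader was called under any of the pseudocounts (0.1 and 5), scalings, filters, transcript sums or left-out libraries. With the replicate block the lowest adjusted p of a reader was 0.304, and 0.278 with summed transcripts, an alternative chosen after seeing the data (Igf2bp1 footprints, METTL3 against ABCF1 knockdown). Counts over all genes, 0 in each comparison, moved with the replicate block, and with the block and summed transcripts, to 10 and 23 for Torin RNA, 126 and 157 for Torin footprints, 50 and 77 for the Torin ratio, 1 and 1 for METTL3 knockdown footprints, and 5 and 15 for METTL3 against ABCF1 knockdown footprints. For the Torin ratio, a pseudocount of 0.1 gave 21 and no filter 52. The cause was not tested. The block changed no call of a reader, and left-out libraries gave 0 to 0 calls everywhere. Direction was less stable: 119 of 476 reader differences changed sign when 1 library was left out. Among values beyond 1 standard error these included Ythdf1 RNA (without Scram replicate 2) and Ythdf3 footprints (without METTL3 knockdown replicate 2) in METTL3 knockdown against Scram, refits on the kept transcript, which no library of replicate 2 or Torin lists, in place of the sum. Among readers' same-replicate differences, 24 of 150 changed sign without scaling, 4 with quantile normalization, 1 with a pseudocount of 5 and 0 with 0.1 or summed transcripts. Without scaling the median over all genes went from 0.02 to 0.38 for the Torin ratio and from -0.05 to -0.35 for ABCF1 knockdown replicate 2 RNA, and Ythdf2 RNA in METTL3 knockdown replicate 2 turned to -0.02; the METTL3 knockdown footprint count stayed at 7 lower and 1 higher under each of these. Depth limits Ythdc2 and Igf2bp3 most.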
